A study of Homo sapiens with 48 samples.

Results

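Of the 53861 H3K27ac peaks called in L3.6pl cells after 30 min of TNFα on chromosomes 1 to 22 and X, 1015 (1.88%) were acetylated after TNFα alone. These regions were chosen by their H3K27ac peak calls alone: each overlapped an H3K27ac peak of 6 h TNFα by at least 1 bp and no H3K27ac peak of vehicle, of 30 min TWEAK or of 6 h TWEAK. L3.6pl is an established human pancreatic ductal adenocarcinoma line, and all groups were the same unmodified line, so the results describe 1 tumor cell line. Cells received PBS as vehicle, TNFα at 10 ng/ml or TWEAK at 10 ng/ml for 30 min or 6 h, and chromatin was precipitated for H3K27ac, RELA or RELB in every condition and for FOSL1 in vehicle only. The 48 libraries, 3 per condition, were deposited as 16 peak lists, 1 per condition, merged over replicates, so each value below stands for 1 list and no spread between replicates can be given. The peaks of 30 min TNFα for RELA carry the mark of replicate 1 in their names beside that of the merged file, and whether all 3 replicates entered that list was not settled. Read depth was not given in the lists, which limits how a missing peak can be read: absence from a list means that the peak caller did not reach its cutoff there, not that the mark was absent.

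H3K27ac, acetylation of lysine 27 of histone H3, marks active promoters and enhancers, and its presence on nucleosomes beside a bound transcription factor is a usual sign of an enhancer in use. TNFα is the textbook activator of the canonical NF-κB pathway, in which the inhibitory IκB proteins are degraded and RELA (p65), mostly paired with p50, enters the nucleus within minutes. TWEAK acts through its receptor Fn14 and is used as an activator of the noncanonical pathway, in which p100 is processed to p52 and RELB/p52 dimers accumulate over hours. FOSL1 (FRA1) is an AP-1 subunit that binds at enhancers in many epithelial tumor cells.

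Because the 5 H3K27ac lists chose the regions, their H3K27ac values are descriptive. The regions were short and weakly enriched. Their median length was 349 bp (213 to 1842 bp) against 676 bp for all peaks of 30 min TNFα. Median fold enrichment over input, the ratio the peak caller gives, was 2.69 (1.39 to 5.93) against 3.05 for all peaks, and median −log10 q was 2.40 against 5.01. At 6 h of TNFα the overlapping peaks had a median fold of 2.61 (1.37 to 5.53). The fold was higher at 30 min than at 6 h in 618 of the 1015 regions, and the median ratio of the 6 h to the 30 min fold was 0.966. The whole lists differed in the same direction, with a median fold of 3.05 at 30 min and 2.99 at 6 h of TNFα. A median of 75.7% of a region's length lay under 6 h peaks. The fold was at least 1.5 times higher at 30 min in 20 regions, and 15 of these lay within 1 kb of a RELA summit of 30 min TNFα. Such a summit lay within 1 kb of 365 of all 1015 regions (35.96%) and of 16.2% of all peaks. The 20 were picked by a high 30 min fold, and the median 30 min fold was 2.84 with such a summit and 2.63 without. In 7 regions the fold was at least 1.5 times higher at 6 h. In all 7 the 6 h peak ran on into a vehicle or TWEAK peak, and none of the 7 had a RELA summit within 1 kb. Across all 1015 regions, 117 (11.5%, exact 95% interval 9.63 to 13.7) had a 6 h peak that also reached a vehicle or TWEAK peak.

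**Figure D1:**
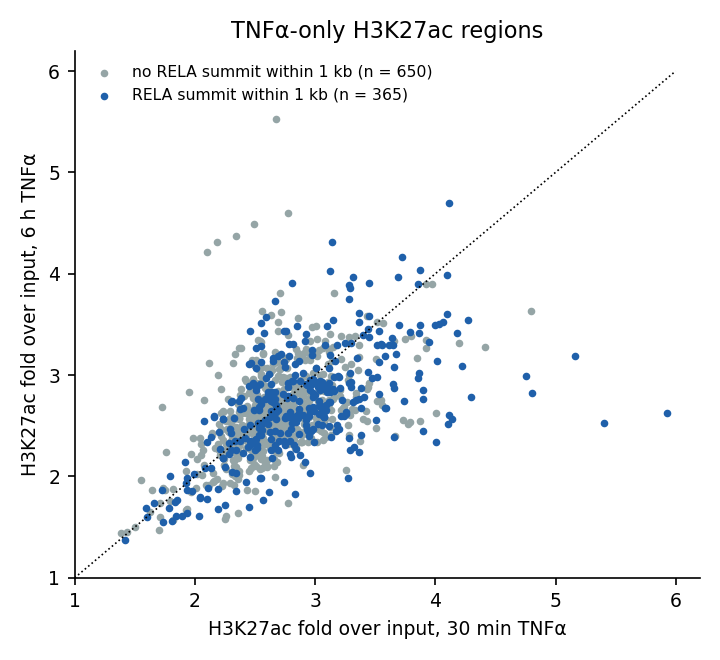
H3K27ac fold over input at 30 min of TNFα (x axis) against that of the overlapping peak at 6 h (y axis) for the 1015 regions, with the dotted line marking equal values. The 365 regions with a RELA summit of 30 min TNFα within 1 kb of their centre (blue) reach the highest 30 min fold, 5.93, and 241 of them lie under the line.

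The regions lay mostly away from promoters. The centre was within 1 kb of a protein-coding transcription start site in 55 of 1015 (5.42%, 4.11 to 7.0), compared with 25.1% of all peaks of 30 min TNFα, and the median distance to the nearest start site was 31.7 kb against 17.8 kb. By GENCODE 44 annotation, 490 centres were in introns of protein-coding genes, 322 were intergenic, 121 were in introns of long noncoding RNAs, 56 were in untranslated parts of exons, 14 were in coding exons and 12 were in exons of long noncoding RNAs. The nearest vehicle peak was a median of 8462 bp away. A vehicle or TWEAK peak came within 500 bp of 239 regions (23.5%) and lay over 20 kb from 193 regions (19.0%). The 1015 regions formed 921 loci when regions up to 50 kb apart were joined, of which 836 held 1 region, 77 held 2, 7 held 3 and 1 held 4. That single locus of 4 was within the NFKB1 gene, which encodes the p105 precursor of p50, between positions 102524961 and 102569513 of chromosome 4 (hg38). Loci of 3 lay nearest to IRAK2, a kinase of interleukin-1 receptor signaling, and to CAB39, TMEM30A, HIP1, FRMD4A, RASGEF1A and PSMA6. These 8 loci were picked out after their counts were seen.

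Of the 1015 regions, 77 (7.59%) lay in tandem repeats, compared with 6.61% of all peaks. Each of the 11 factor lists overlapped 23.4% to 51.9% of these 77. A region was counted as tandem when its central 1000 bp matched itself at a shift of up to 400 bp at 40% of positions or more. Within these 77 regions, FOSL1 peaks of vehicle overlapped 40 (51.9%), RELB peaks of vehicle overlapped 34 (44.2%) and RELA peaks of vehicle overlapped 19 (24.7%). Over all 3561 peaks in tandem repeats these shares were 69.3%, 51.1% and 40.7%. Outside tandem repeats the vehicle RELA list overlapped 1 of 938, against 0.493% of all peaks there. Comparisons with the factor lists are therefore given for all regions and for the 938 outside tandem repeats, and near-identical copies elsewhere in the genome could still share reads.

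The sequences that carry the finding are those under the RELA summits beside or within the regions. RELA summits of 30 min TNFα, the positions of highest enrichment, lay near many regions. The 100 bp around them are shown for some of the regions named by rank, by length, by a listed gene or by a locus of 3 or more. Most of those shown held a match, so they do not give the share of windows with one. Each is the reference plus strand of hg38, with the NF-κB consensus in capitals on either strand, including overlapping matches, and the name is that of the nearest protein-coding start site.
MORC1, chr3:109082072-109082171: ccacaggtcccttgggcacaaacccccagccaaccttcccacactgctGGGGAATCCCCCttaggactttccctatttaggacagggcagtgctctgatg
DCN, chr12:91407006-91407105: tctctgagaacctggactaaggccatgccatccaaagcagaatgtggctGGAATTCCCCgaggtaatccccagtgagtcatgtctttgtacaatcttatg
UBE2E1, chr3:23748759-23748858: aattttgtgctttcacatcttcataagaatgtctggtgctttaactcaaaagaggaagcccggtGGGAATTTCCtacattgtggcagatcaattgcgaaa
FAT1, chr4:186904298-186904397: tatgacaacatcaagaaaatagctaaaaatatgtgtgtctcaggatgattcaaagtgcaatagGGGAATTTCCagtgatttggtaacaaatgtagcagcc
PIK3CB, chr3:138723849-138723948: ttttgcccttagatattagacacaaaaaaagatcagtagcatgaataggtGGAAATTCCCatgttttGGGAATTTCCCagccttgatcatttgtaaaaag
B4GALT1, chr9:33186643-33186742: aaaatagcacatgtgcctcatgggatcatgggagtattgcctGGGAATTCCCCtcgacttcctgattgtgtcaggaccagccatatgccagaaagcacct
CCL2, chr17:34252623-34252722: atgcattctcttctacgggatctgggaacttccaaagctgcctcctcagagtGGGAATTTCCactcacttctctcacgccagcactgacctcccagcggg
NFKB1, chr4:102552983-102553082: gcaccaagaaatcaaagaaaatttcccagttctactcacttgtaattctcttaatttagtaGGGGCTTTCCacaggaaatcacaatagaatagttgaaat
IRAK2, chr3:10199247-10199346: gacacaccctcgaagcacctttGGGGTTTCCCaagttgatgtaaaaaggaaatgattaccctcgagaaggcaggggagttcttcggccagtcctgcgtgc
HIP1, chr7:75649786-75649885: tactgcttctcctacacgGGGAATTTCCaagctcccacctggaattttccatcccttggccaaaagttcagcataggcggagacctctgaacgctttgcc
EFNA1, chr1:155124736-155124835: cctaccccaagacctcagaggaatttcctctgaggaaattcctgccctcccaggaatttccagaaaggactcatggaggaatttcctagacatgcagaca
The window beside EFNA1, which encodes a membrane-bound ligand of Eph receptors, held no full match to the consensus and is shown because its RELA fold was 18.9. Many windows not shown likewise held no match, among them that of GRB10, the region with the highest H3K27ac fold. Others were those of FBXO47, CYP2F1, PPP1R9B, CFAP58, SNX16, PEDS1-UBE2V1, SYNGR3, EGLN2, PREP, ICAM1, CAB39 and FRMD4A. The windows at the SOD2 pair and at the first NFKB1 region had none either. The regions at the windows of MORC1, PIK3CB, NFKB1, IRAK2 and HIP1 lay in introns of those genes, that of DCN in an intron of a long noncoding RNA, and those of UBE2E1, FAT1, B4GALT1, CCL2 and EFNA1 were intergenic.

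RELA summits lay beside these regions more often than under them. RELA peaks of 30 min TNFα overlapped 162 of 1015 regions (16.0%, exact 95% interval 13.8 to 18.4), against 12.5% of all H3K27ac peaks of 30 min TNFα. Outside tandem repeats the overlap was 136 of 938 (14.5%, 12.3 to 16.9) against 10.1%. When the distance from the region's centre to the nearest RELA summit was used instead, a measure added after seeing the data, a summit lay within 1 kb of 337 of the 938 regions (35.9%, 32.9 to 39.1), against 13.8% of all peaks outside tandem repeats. Within 250 bp the shares were 7.36% (5.77 to 9.22) and 5.74% (5.54 to 5.95). Within 2 kb the count was 341 of 938 (36.4%), close to that within 1 kb. All intervals here cover counting error only, and neighboring regions that share a summit are not independent.

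The distances formed a ring around the centre. Of the 938 regions, 3.41% had the nearest summit within 100 bp, 2.24% between 100 and 200 bp, 7.14% between 200 and 300 bp, 11.8% between 300 and 400 bp, 7.78% between 400 and 500 bp and 2.45% between 500 and 600 bp. For the 337 regions with a summit within 1 kb, the median distance was 333 bp (quartiles 267 and 415 bp), 251 (74.5%) had it between 200 and 500 bp, and the RELA peak itself overlapped the region in 136 (40.4%). H3K27ac peaks called in vehicle showed no such ring, with 2.82% within 100 bp and a fall to 1.63% between 300 and 400 bp. Peaks acetylated at 30 min of TNFα only also had their highest share, 5.04%, between 300 and 400 bp. The both-ligand regions, absent from vehicle and acetylated at both times of TNFα and after TWEAK, likewise had their highest share there, 5.21%, against 3.25% within 100 bp. The ring was thus not particular to the TNFα-only regions, where the share in this bin was 11.8%.

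**Figure D2:**
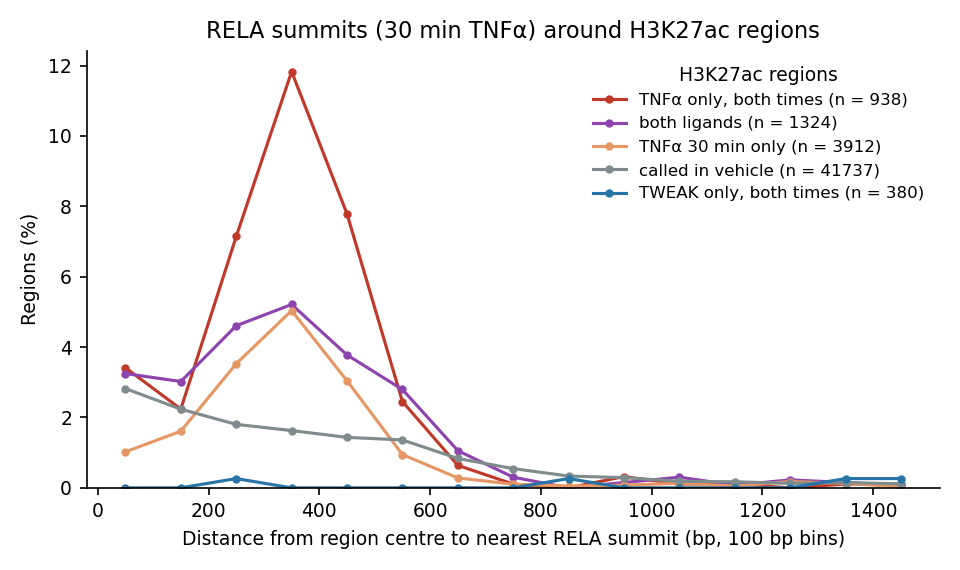
Share of H3K27ac regions (y axis, %) whose nearest RELA summit of 30 min TNFα falls in each 100 bp bin of distance from the region's centre (x axis, bp), outside tandem repeats, for the 938 regions acetylated after TNFα only (red) and 4 other classes. The red line peaks at 11.8% between 300 and 400 bp and the grey line of peaks called in vehicle falls from 2.82% without a maximum there.

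A RELA summit within 1 kb was less frequent in each other class. It was found at 24.2% (21.9 to 26.6) of the 1324 both-ligand regions outside tandem repeats, at 5.11% (4.26 to 6.07) of the 2389 in both 30 min lists but not that of 6 h TNFα, at 15.7% (14.6 to 16.9) of the 3912 regions acetylated only at 30 min of TNFα and at 13.3% (13.0 to 13.6) of the 41737 regions called in vehicle. The mirror set, 441 regions acetylated at both times of TWEAK but in neither TNFα list nor vehicle, included 380 outside tandem repeats, and 2 of these (0.526%, 0.0638 to 1.89) had such a summit. The mirror regions come from the 30 min TWEAK list. The share was higher in the TNFα-only regions than in all peaks of the same chromosome on 23 of 23 chromosomes, from 23.1% against 14.7% on chromosome 21 to 45.8% against 9.59% on chromosome X.

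Length and enrichment differ between the classes, so the share was also read within strata. Among regions of 300 to 500 bp, a RELA summit lay within 1 kb of 145 of 413 TNFα-only regions (35.1%, 30.5 to 39.9), 20.4% (16.9 to 24.3) of the both-ligand regions, 16.0% (14.2 to 17.99) of the regions of 30 min TNFα only and 6.8% (6.22 to 7.41) of the regions called in vehicle. Among regions of 200 to 300 bp the share was 23.5% (19.0 to 28.6) for the TNFα-only regions and 12.1% (10.7 to 13.6) for those of 30 min TNFα only. Among regions with a fold between 3 and 4, 107 of 201 TNFα-only regions (53.2%, 46.1 to 60.3) had a RELA summit within 1 kb, against 14.9% (14.3 to 15.4) of those called in vehicle. In that stratum it was 36.1% (31.1 to 41.3) of the both-ligand regions and 30.6% (26.6 to 34.7) of those of 30 min TNFα only. The share of the TNFα-only regions was higher with each step of length and fold. So was that of the both-ligand regions, from 9.86% to 60.2% by length and from 16.0% to 77.3% by fold. By length the share also rose with each step in every other class of 30 min TNFα peaks. Above 4-fold the share of the TNFα-only regions was 18 of 21 (85.7%, 63.7 to 97.0), a bin of few regions. That interval overlapped those of the both-ligand regions (77.3%, 62.2 to 88.5) and of the regions of 30 min TNFα only (58.8%, 32.9 to 81.6), and lay above that of the regions called in vehicle (15.4%, 14.7 to 16.2). At 1000 bp and over the interval of the TNFα-only regions (53.3 to 90.2) overlapped those of the both-ligand regions (49.8 to 70.0) and of the regions of 30 min TNFα only (45.7 to 88.1).

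**Figure D3:**
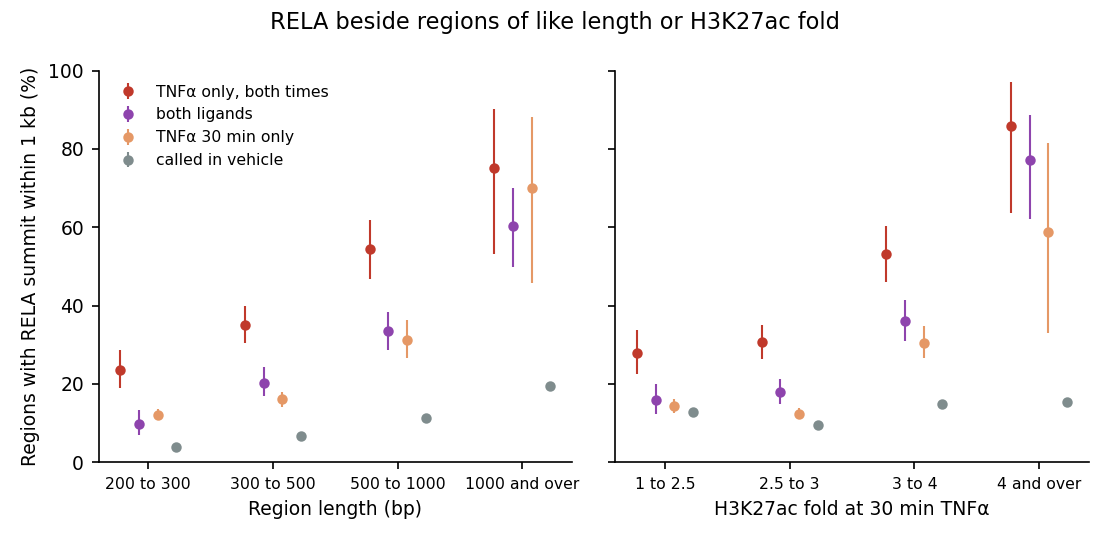
Share of regions with a RELA summit of 30 min TNFα within 1 kb (y axis, %) by region length in bp (left) and by H3K27ac fold at 30 min (right), outside tandem repeats, with exact 95% intervals. Red points, the TNFα-only regions, lie above the grey points of peaks called in vehicle in all 8 strata, with 35.1% against 6.8% at 300 to 500 bp. The both-ligand regions (purple) had 20.4% at that length.

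RELA peaks of 6 h TNFα overlapped 85 of 1015 regions (8.37%, 6.74 to 10.2), against 7.45% of all peaks, with the background value inside this interval. Their summits lay within 1 kb of 210 of 938 regions outside tandem repeats (22.4%, 19.8 to 25.2), against 6.38% of all peaks and 3.78% (3.21 to 4.43) of the regions of 30 min TNFα only. By overlap, the RELA lists of vehicle, 30 min TWEAK and 6 h TWEAK reached 20, 21 and 26 of the 1015 regions, against 3.15%, 3.36% and 3.43% of all peaks, and outside tandem repeats they reached 1, 2 and 1 of 938, against 0.493%, 0.972% and 0.491% of all peaks there. RELA summits of vehicle were within 1 kb of 6 of 938 (0.640%), against 0.742% of all peaks, those of 30 min TWEAK of 13 (1.39%), against 1.40%, and those of 6 h TWEAK of 9 (0.959%), against 0.771%. By summits within 1 kb, the share at these regions thus stood above that of all peaks in the 2 TNFα lists of RELA. In the other 3 RELA lists, by summits, the background share lay inside the interval.

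RELB peaks of 6 h TWEAK overlapped 30 of 1015 regions (2.96%, 2.00 to 4.19), against 4.67% of all peaks. By summits within 1 kb the order turned, with 67 of 938 (7.14%, 5.58 to 8.98) against 3.00% of all peaks, so the direction depends on whether the region itself or its surroundings are read. The both-ligand regions had 7.78% (6.39 to 9.36) on that measure. A RELB summit of 6 h TNFα lay within 1 kb of 9 of the 938 regions (0.959%), against 0.732% of all peaks. In the other 3 RELB lists the counts were 2 of 938 for vehicle, against 0.417%, and 0 of 938 for 30 min TNFα and for 30 min TWEAK (0, exact upper bound 0.392%), against 0.157% and 0.109%. By overlap, the RELB lists of vehicle, 30 min TNFα, 6 h TNFα and 30 min TWEAK reached 36, 22, 30 and 22 of the 1015 regions, against 3.65%, 2.94%, 3.50% and 2.64% of all peaks, and 34, 22, 29 and 22 of these lay in tandem repeats. RELB was thus beside a subset of the regions after 6 h of TWEAK. That no H3K27ac peak of TWEAK overlapped the regions follows from the rule.

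FOSL1 was called at few of the regions. FOSL1 peaks of vehicle overlapped 142 of 1015 (14.0%, 11.9 to 16.3), against 52.7% of all peaks, and the share was 102 of 938 (10.9%, 8.95 to 13.0) against 51.5% outside tandem repeats. A FOSL1 summit lay within 1 kb of 247 of 938 (26.3%, 23.5 to 29.3), against 61.0%. Among regions of 300 to 500 bp the FOSL1 overlap was 11.6% for the TNFα-only regions and 40.3% for those called in vehicle. It was 15.0% for the both-ligand regions, 4.90% for those of 30 min TNFα only and 9.23% for those in both 30 min lists but not that of 6 h TNFα. A low FOSL1 share was thus not particular to the TNFα-only regions. The mirror set of TWEAK-only regions had a FOSL1 summit within 1 kb at 90 of 380 (23.7%, 19.5 to 28.3), an interval that overlapped that of the TNFα-only regions. FOSL1 was measured in vehicle only, so its place after TNFα was not measured.

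**Figure D4:**
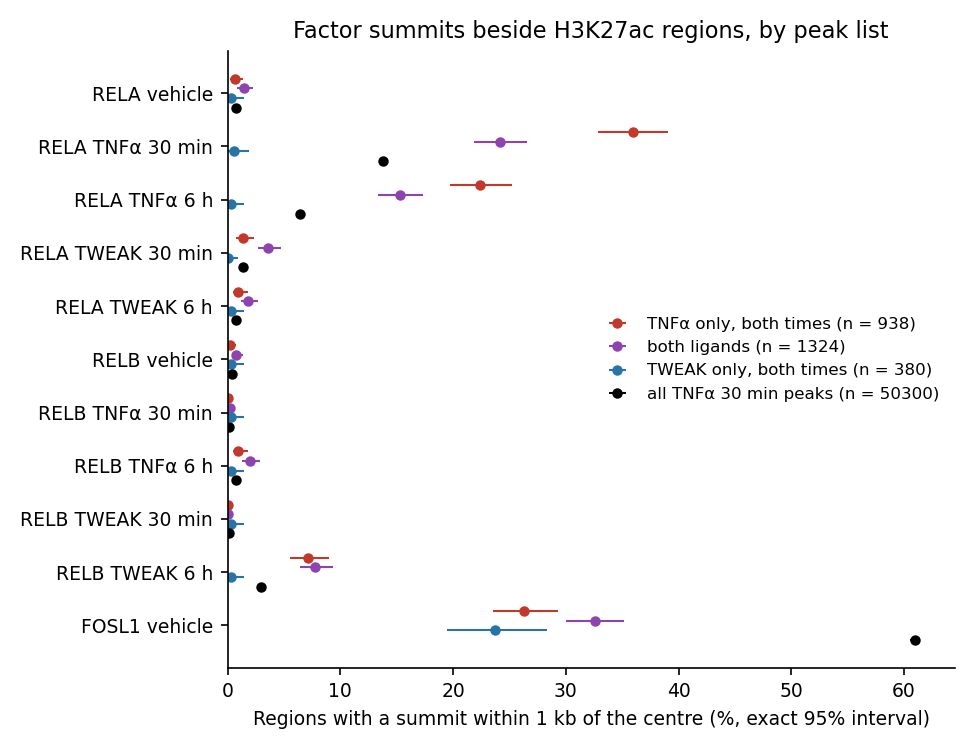
Share of regions with a factor summit within 1 kb of the centre (x axis, %, exact 95% intervals) for each of the 11 factor peak lists (y axis), outside tandem repeats. The TNFα-only regions (red) exceed all peaks (black) for RELA at 30 min (35.9% against 13.8%) and 6 h of TNFα and for the RELB list of TWEAK at 6 h, and fall below them for FOSL1 (26.3% against 61.0%).

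Seen from the RELA side, 329 RELA summits lay within 1 kb of a TNFα-only region. At 45 of them a region lay on each side of the summit, which took in 90 regions, and in 15 of the 45 the same 6 h peak covered both. At the other 284 summits a region lay on 1 side only. On the opposite side of these, 36 had an H3K27ac peak called in vehicle and 55 had another peak of 30 min TNFα that vehicle lacked. RELA fold at the 45 ranged from 4.23 (GJB5) to 23.3 (CYP2F1), RELA was also called at 6 h of TNFα at 30 of them, and the NF-κB consensus was found at 25. Over the 298 summits beside TNFα-only regions outside tandem repeats these shares were 56.4% and 58.7%. Over all RELA summits there they were 35.3% and 46.2%. NFKB1, NEDD9, BACH2 and ITGB8 were among the nearest genes, and all these names were chosen after the values were seen.

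Outside tandem repeats, the 298 summits beside TNFα-only regions had a median RELA fold of 7.90, against 6.21 for all 8307 RELA peaks of 30 min TNFα there, 8.4 for the 296 summits beside both-ligand regions and 6.86 for the 545 beside regions acetylated at 30 min only. RELA was still called at 6 h of TNFα at 168 of the 298 (56.4%, 50.5 to 62.1). It was also called at 167 of the 296 beside both-ligand regions (56.4%, 50.6 to 62.1). This share was 24.6% (21.0 to 28.4) at the 545 summits beside regions acetylated at 30 min only, 39.9% (38.6 to 41.3) at the 5107 summits beside regions called in vehicle and 35.3% (34.3 to 36.4) over all RELA peaks. The RELA lists were not used to choose the regions. The H3K27ac list of vehicle reached the summit itself at 2 of the 298 (0.671%), that of 30 min TNFα at 58 (19.5%) and that of 6 h TNFα at 93 (31.2%), against 45.9%, 49.0% and 47.8% of all RELA summits. The low vehicle share follows in part from the rule, which left out regions with a vehicle peak. Some summits lay near regions of more than 1 class: 33 of the 298 were also within 1 kb of a peak called in vehicle, 27 of a both-ligand region and 28 of a region of 30 min TNFα only.

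The RELA list of 30 min TWEAK overlapped 13 of the 298 (4.36%, 2.34 to 7.34), against 7.79% (7.22 to 8.39) of all RELA peaks, 3.85% (2.40 to 5.83) of the summits beside regions of 30 min TNFα only and 14.2% (10.4 to 18.7) of the 296 beside both-ligand regions, a class chosen for acetylation after TWEAK. RELB of 6 h TWEAK overlapped 55 of the 298 (18.5%, 14.2 to 23.3), with the 15.8% of all RELA peaks inside this interval. It overlapped 19.3% (18.2 to 20.4) of the summits beside regions called in vehicle, 27.4% (22.4 to 32.8) of those beside both-ligand regions and 7.34% (5.30 to 9.86) of those beside regions of 30 min TNFα only. FOSL1 of vehicle overlapped 70 of the 298 (23.5%, 18.8 to 28.7), against 48.9% (47.8 to 49.9) of all RELA peaks and 71.4% (70.1 to 72.6) of the summits beside regions called in vehicle. Beside both-ligand regions it was 33.4% (28.1 to 39.1), an interval that overlapped that of the TNFα-only regions, and beside regions of 30 min TNFα only 12.5% (9.82 to 15.6).

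The NF-κB and AP-1 letters were more frequent around the RELA summits than at the centres of the regions. The TEAD letters were not, and the windows differed in width. In the central 300 bp of a region the NF-κB consensus occurred in 59 of 1015 (5.81%, 4.45 to 7.43), against 6.81% of all peaks. In the 200 bp around the 298 summits it occurred in 175 (58.7%, 52.9 to 64.4), against 46.2% (45.1 to 47.3) of all RELA summits, 58.4% (52.6 to 64.1) beside both-ligand regions, 53.2% (48.9 to 57.5) beside regions of 30 min TNFα only and 37.8% (36.4 to 39.1) beside regions called in vehicle. The AP-1 letters TGANTCA, searched on both strands, occurred in the central 300 bp of 128 of 1015 regions (12.6%, 10.6 to 14.8), against 15.4% of all peaks. Around the 298 summits they occurred in 87 (29.2%, 24.1 to 34.7), against 18.9% (18.1 to 19.8) of all RELA summits, 26.0% (21.1 to 31.4) of those beside both-ligand regions and 11.6% (9.0 to 14.6) of those beside regions of 30 min TNFα only. The interval overlapped that of the both-ligand regions. The TEAD letters GGAATG occurred in the central 300 bp of 186 regions (18.3%, 16.0 to 20.8), against 17.4% of all peaks, and around 42 of the 298 summits (14.1%, 10.4 to 18.6), against 15.3%. The CRE letters TGACGTCA occurred in 1 region of the 1015, against 0.631% of all peaks. A match is a description of the reference letters and not a bound site.

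FOSL1 was called at fewer of these summits than of those beside regions called in vehicle, with AP-1 letters and without. Of the 87 summits beside TNFα-only regions with AP-1 letters in the 200 bp window, FOSL1 of vehicle was called at 39 (44.8%, 34.1 to 55.9), against 990 of 1079 (91.8%, 89.9 to 93.3) beside regions called in vehicle. Without AP-1 letters the shares were 31 of 211 (14.7%, 10.2 to 20.2) and 65.9% (64.4 to 67.4). This split was chosen after seeing the data.

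The regions were also compared among themselves by the presence of a RELA summit within 1 kb. The 337 regions outside tandem repeats with a summit had a median length of 417 bp against 330 bp for the 601 without, and a median H3K27ac fold of 2.82 against 2.62 at 30 min and 2.67 against 2.57 at 6 h. The fold was higher at 30 min than at 6 h in 223 of 337 (66.2%, 60.8 to 71.2) and in 348 of 601 (57.9%, 53.8 to 61.9). A vehicle or TWEAK peak lay within 500 bp of 69 of the 337 (20.5%, 16.3 to 25.2) and of 163 of the 601 (27.1%, 23.6 to 30.9). FOSL1 overlapped 33 (9.79%, 6.84 to 13.5) and 69 (11.5%, 9.04 to 14.3), and the intervals overlapped. In the central 300 bp the NF-κB consensus was found in 31 (9.20%, 6.34 to 12.8) against 27 (4.49%, 2.98 to 6.47), and AP-1 letters in 27 (8.01%, 5.35 to 11.4) against 100 (16.6%, 13.8 to 19.9). Distance to the nearest start site was close in both, with medians of 28.2 kb and 28.1 kb.

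Regions with the highest H3K27ac fold at 30 min were nearest to GRB10, MORC1, FBXO47, ZDHHC18, CYP2F1, SRGAP2C, DCN, PPP1R9B and CFAP58. Of those named, all but the ZDHHC18 and SRGAP2C regions had a RELA peak of 30 min TNFα within 1 kb. The SRGAP2C region lay in a tandem repeat at positions 122919993 to 122920254 of chromosome 1 and overlapped 9 of the 11 factor lists, vehicle RELA and RELB included. An intronic region of GRB10, an adaptor that binds insulin and growth factor receptors, held the highest fold (chr7:50632081-50632974, hg38, 894 bp). Its H3K27ac fold was 5.93 at 30 min of TNFα and 2.63 at 6 h, its RELA fold was 13.3 at 30 min of TNFα, and no other factor list had a peak within 1 kb. The H3K27ac fold there was lower at 6 h, which a ranking by the 30 min fold favors, and RELA was called in the 30 min TNFα list only.

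The region in an intron of MORC1, a germline gene of transposon silencing, had RELA at both times (chr3:109081566-109082061). H3K27ac was 5.16-fold at 30 min of TNFα and 3.19-fold at 6 h. In the TNFα lists RELA was 22.1-fold (30 min) and 19.5-fold (6 h), with 6.49-fold at 30 min of TWEAK and not called in vehicle or at 6 h of TWEAK, while RELB was called at 6 h of TWEAK at 5.94-fold. RELA was therefore in 3 of its 5 lists here, while the rule itself allowed overlapping H3K27ac peaks in the TNFα lists alone. The region nearest to DCN, which encodes the matrix proteoglycan decorin, had H3K27ac of 4.30 and 2.79. Within 1 kb it had RELA of 13.2 at 30 min of TNFα and 12.3 at 6 h, and RELB of 15.3 at 6 h of TWEAK and 5.18 at 6 h of TNFα. A FOSL1 peak of 9.20 overlapped the region and a vehicle H3K27ac peak lay 345 bp away.

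The 10 regions with the highest fold of an overlapping RELA peak at 30 min of TNFα were nearest to CYP2F1, MORC1, UBE2E1, TRH, KRTAP5-11, SNX16, PEDS1-UBE2V1, SYNGR3, EGLN2 and FAT1, from 23.3 (CYP2F1) to 16.8 (FAT1). Of these 10, 9 had RELA within 1 kb at 6 h as well, the SNX16 region being the exception. Those nearest to KRTAP5-11 and PEDS1-UBE2V1 also had RELA peaks within 1 kb in vehicle, of 8.35 and 8.20. The region nearest to CYP2F1, a cytochrome P450 gene, had a RELA fold of 23.3 at 30 min and 11.4 at 6 h, and H3K27ac of 4.75 and 2.99. The intergenic region nearest to FAT1, an atypical cadherin gene, had a RELA fold of 16.8 at 30 min and 16.2 at 6 h and, in the 6 h TWEAK list, 9.88 for RELB, with H3K27ac of 2.53 and 2.65. RELA fold thus differed between the times at CYP2F1 far more than at FAT1. Of these 10, 4 windows belonged to near-identical copies. The windows beside TRH and KRTAP5-11 matched in 73 of 75 bases (97.3%) on opposite strands, and are shown for that reason.
TRH, chr3:130026561-130026660: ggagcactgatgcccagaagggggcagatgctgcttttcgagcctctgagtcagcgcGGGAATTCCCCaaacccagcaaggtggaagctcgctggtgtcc
KRTAP5-11, chr11:71589303-71589402: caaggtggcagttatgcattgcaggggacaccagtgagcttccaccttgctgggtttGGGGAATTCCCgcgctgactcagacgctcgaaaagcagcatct
Those of CYP2F1 and EGLN2 matched in 97 of 99 bases (98.0%), also on opposite strands. Reads from such copies may have been placed at either, so the RELA folds at these 4 are uncertain.

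The 5 longest regions lay nearest to NOD2, B4GALT1, PREP, PIK3CB and CLPTM1, and all but the CLPTM1 region had a RELA peak of 30 min TNFα under them. The longest, 1842 bp, covered the start of NOD2, which encodes an intracellular receptor for bacterial peptidoglycan fragments (chr16:50696453-50698294), with H3K27ac of 3.00 at 30 min and 2.34 at 6 h and RELA of 5.82 at 30 min only. The region at B4GALT1, a galactosyltransferase gene, had RELA of 9.29 at 30 min and 11.1 at 6 h, and that at PIK3CB, a catalytic subunit of phosphoinositide 3-kinase, 11.5 and 6.23. The CLPTM1 region (1304 bp) lay 10.5 kb from a start site of RELB and had no peak of any factor list within 1 kb.

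Genes of the NF-κB response were then read from 15 lists of 175 genes. A TNFα-only region lay within 50 kb of a start site of 21 of these 175 genes (12.0%), against 5.28% of all 19618 protein-coding genes, and one with a RELA summit within 1 kb lay near 14 of them, against 2.04% of all genes. The lists hold genes known to answer TNFα, and 1 region can serve several neighbors, as at ICAM1, ICAM4 and ICAM5. NFKB1 and RELB were the 2 of 5 NF-κB subunit genes with a region, and NFKBIA was the 1 of 6 IκB genes. TNFAIP2 and CYLD were the 2 of 11 feedback regulators, CCL2 and CCL28 the 2 of 14 chemokines, LIF the 1 of 21 cytokines and TNFRSF9 the 1 of 15 TNF receptors and ligands. Of the adhesion genes 3 of 9 (ICAM1, ICAM4 and ICAM5), 2 matrix genes of 16 (MMP3 and MMP12), 3 ephrin genes of 7 (EFNA1, EFNA3 and EPHA2), 2 stress enzymes of 7 (SOD2 and PTGS2) and 2 genes of 11 among EGFR ligands and phosphatases (EGFR and DUSP1) had one. None was found for the 15 genes of TRAF, cIAP and NIK signaling, the 11 survival genes, the 11 AP-1 genes or the 16 interferon response genes. Each of the 175 genes had at least 1 H3K27ac peak of 30 min TNFα within 50 kb, against 87.8% of all genes, so the lists lie in acetylated surroundings.

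Among the inflammatory mediators, the region upstream of CCL2, the monocyte chemoattractant, lay 3006 bp from the start site (chr17:34252059-34252477). H3K27ac was 3.30-fold at 30 min and 3.32-fold at 6 h, the nearest vehicle peak was 45563 bp away, and RELA was 15.6-fold at 30 min of TNFα and 7.68-fold at 6 h at a summit 405 bp from the centre. At 6 h a second H3K27ac peak (2.81-fold) was called on the far side of the summit. At TNFRSF9, the gene of the costimulatory receptor 4-1BB, the region lay 290 bp inside the start site (chr1:7940384-7940713). H3K27ac was 2.73 at 30 min and 2.81 at 6 h, RELA was 10.1 at 30 min of TNFα and 13.6 at 6 h, and RELB was 9.34 at 6 h of TWEAK. Here too a second peak on the far side was called at 6 h only (2.97-fold). H3K27ac peaks were thus called on 1 side of the summit at 30 min and on both at 6 h in these loci. A missing call on the far side at 30 min does not show that the mark was absent there.

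The region upstream of ICAM1, a leukocyte adhesion receptor, covered 1131 bp and lay 842 bp from the start site (chr19:10269686-10270816). H3K27ac was 3.38 at 30 min and 2.87 at 6 h, RELA reached 7.94 within 1 kb at 30 min of TNFα, and no other factor list had a peak there. For EFNA1 the region lay 3611 bp upstream (chr1:155123984-155124545), with H3K27ac of 2.75 and 2.31, RELA of 18.9 at 30 min of TNFα and 7.57 at 6 h, and no overlap between the RELA peak and the region. EPHA2, a receptor of EFNA1, had a region 3522 bp from its start (chr1:16159467-16159714) with H3K27ac of 1.82 and 1.87, a FOSL1 peak of 5.12 within 1 kb and no RELA. The ligand's region had RELA beside it and the receptor's did not.

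For SOD2, the mitochondrial superoxide dismutase, 2 regions of 385 and 372 bp flanked a RELA summit of 4.94 at 30 min of TNFα and 5.78 at 6 h, at 10387 and 9718 bp from the start site, and a FOSL1 peak of 5.34 lay within 1 kb of the latter region. Their H3K27ac folds were 3.21 and 3.04 at 30 min, and 1 peak of 2.87 covered both at 6 h. The region of NFKBIA, the gene of the inhibitor IκBα, lay 8513 bp upstream (chr14:35413134-35413390), had H3K27ac of 2.92 and 2.42 and a FOSL1 peak of 4.75, had no RELA summit within 1 kb, and stood 607 bp from a vehicle peak. The 2 regions of CCL28, a mucosal chemokine (a FOSL1 peak of 3.56 within 1 kb of the intronic one), and that of MMP12, the macrophage elastase, had no RELA peak within 1 kb in any list. Their H3K27ac folds were higher at 6 h than at 30 min: 2.51 and 2.73 for the intronic CCL28 region, 2.57 and 2.64 for that at its start, and 2.55 and 3.33 for MMP12. Regions farther out with a RELA summit within 1 kb included those of LIF (41.8 kb), PTGS2, the gene of cyclooxygenase-2 (34.7 kb), TNFAIP2 (27 kb) and EGFR (42.5 kb).

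The NFKB1 locus held 4 regions in its introns. The middle pair (chr4:102552096-102552887 and chr4:102553498-102553725) lay on the 2 sides of a RELA summit of 9.63 at 30 min of TNFα and 7.94 at 6 h, with RELB of 5.86 at 6 h of TWEAK. Their H3K27ac folds were 2.45 and 2.52 at 30 min, and at 6 h 1 peak of 2.89 spanned the summit. The first region (chr4:102524961-102525450) had H3K27ac of 2.41 and 2.46 and RELA of 7.38 at 30 min only, and the last (chr4:102569182-102569513) had 2.37 and 2.58 with no factor peak within 1 kb. In the gene that encodes p50, RELA's usual partner, 3 of the 4 regions thus had RELA beside or under them after 30 min of TNFα.

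**Figure D5:**
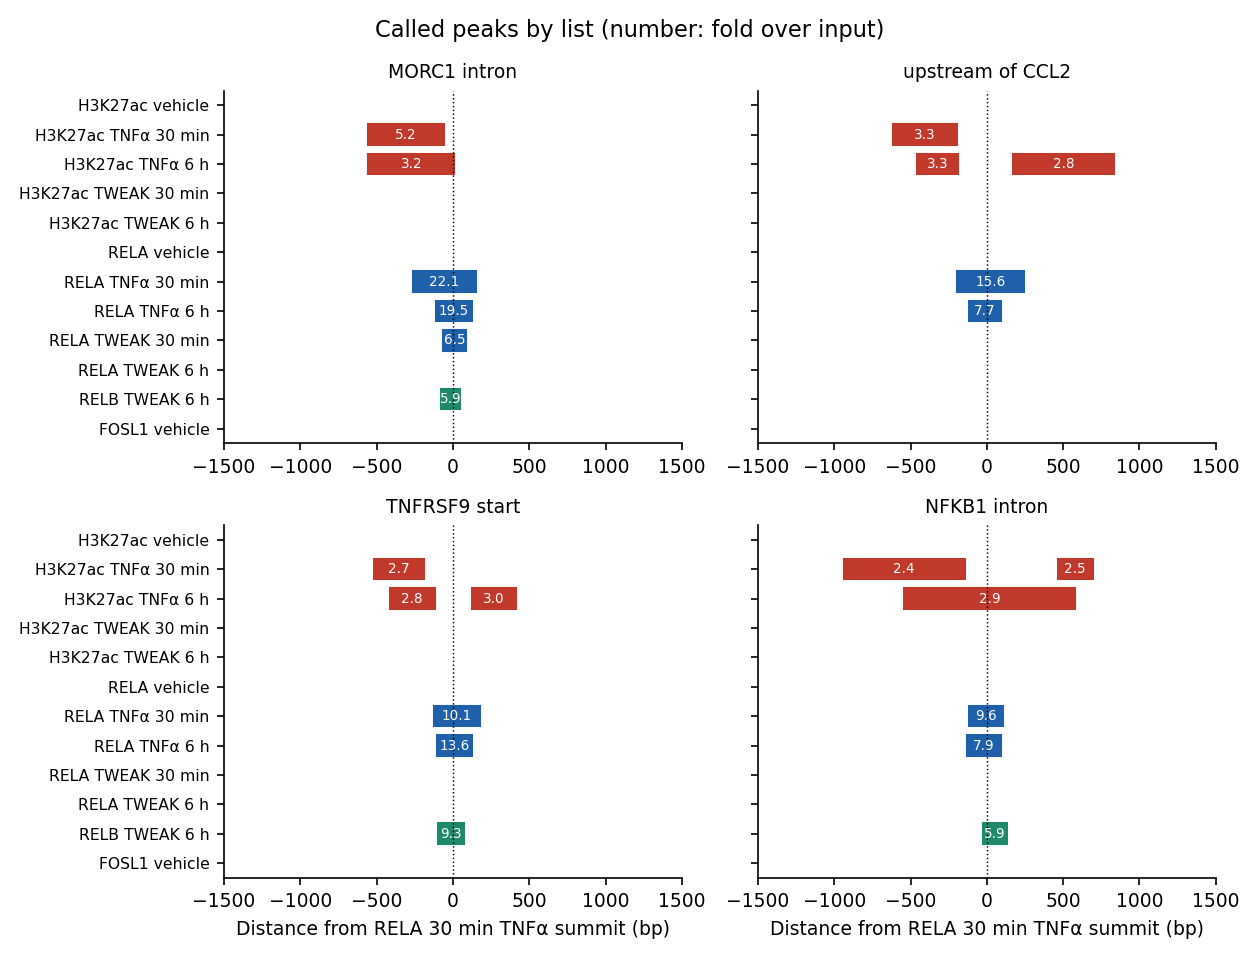
Peaks called in 12 lists (rows) within 1500 bp of the RELA summit of 30 min TNFα (x axis, bp from the summit) at 4 loci, with the fold over input written in each box. At each locus H3K27ac boxes appear in the TNFα rows alone, which the rule required at the region itself. The boxes reach to the sides of the RELA summit, and the H3K27ac box of 6 h at the NFKB1 intron (2.89) spans the summit.

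At the limits of the rule, 3 regions just inside it stood 0, 0 and 1 bp from the nearest vehicle or TWEAK peak (nearest to ENSG00000284895, IFNB1 and FAM168B), and 3 peaks just outside shared 2, 2 and 6 bp with such peaks (CDK13, TMEM123 and CNNM4). Their folds at 30 min were 3.66, 2.85 and 2.59 inside and 2.74, 1.83 and 3.10 outside. On the 6 h side, the regions with the least overlap shared 2, 8 and 8 bp with a 6 h peak (NSMCE1, IDO2 and SPAG9), and the nearest peaks left out missed one by 0, 0 and 2 bp (AQP7B, RADX and AKAP12).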

How the data were processed

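Chromatin immunoprecipitation for H3K27ac, RELA, RELB and FOSL1 in L3.6pl cells was sequenced as paired-end reads. Per the labels, the authors aligned reads to hg38 with Bowtie2 2.5.0 and used SAMtools 1.18, deepTools 3.3.2 and MACS2 (version not given in the sources used here), calling broad H3K27ac peaks and narrow factor peaks against input. Each of the 16 deposited lists is named as merging the 3 replicates of a condition (not settled for RELA at 30 min of TNFα) and gives a ratio (fold over input) and a −log10 q-value for each peak. The precipitations used bead protein G for RELA and protein A for the others.

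From these lists, overlaps, distances and motif searches were computed in Python 3.11.15 with pysam 0.24.0 on the hg38 sequence and GENCODE 44, on chromosomes 1 to 22 and X. Shares carry exact 95% (Clopper-Pearson) intervals, which cover counting error over regions only. No test was run, since each condition is 1 list and regions are not replicates. Overlap, rule, motif and repeat scripts were tested on simulated data. Regions, gene lists and measures were chosen with earlier results of these data known. Named regions (1 is not reported here) were the 10 with the highest H3K27ac fold, the 10 with the highest fold of an overlapping RELA peak, the 5 longest, those within 10 kb of a listed gene and those at the limits of the rule; others are said to be chosen after their values were seen. Gene lists were read by regions within 50 kb of a start site. The alternatives changed the cutoffs, the gap to vehicle or TWEAK peaks, the overlap measure, the treatment of tandem repeats and the motif window.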

Additional observations from a re-analysis of the deposited data

How the results depend on the processing

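The peak lists hold no counts, so depth and replicate spread were not available and leaving out a replicate could not be done. No paired analysis was possible because each condition has 1 pooled list without replicate values. The summit measure within 1000 bp was chosen after seeing the data.

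The 1015 regions became 600 with H3K27ac peaks of −log10 q of at least 3, 248 with a fold of at least 3 and 657 with no vehicle or TWEAK peak within 2000 bp. The −log10 q cutoff was applied to all 5 H3K27ac lists, so weaker vehicle or TWEAK peaks no longer excluded a region. The 600 are therefore not a subset of the 1015: RELA peaks of 30 min TNFα overlapped 197 of the 600 and 162 of the 1015. The joining of peaks was likewise done in all 5 lists. In this order of settings (−log10 q, fold), the overlap shares became 32.8% and 28.2% (RELA, 30 min TNFα), 18.7% and 15.7% (RELA, 6 h TNFα), 26.7% and 18.1% for FOSL1, and 9.67% and 6.86% for RELB at 6 h of TWEAK, where the RELB share turned from below to above that of all peaks (5.92% and 6.52%). All peaks under these settings had 16.4% and 16.7% for RELA at 30 min, 9.48% and 10.1% for RELA at 6 h, and 64.0% and 66.6% for FOSL1. With no vehicle or TWEAK peak within 500 bp RELA was 18.7% at 30 min and 10.3% at 6 h, and within 2000 bp 18.4% at 30 min. All peaks there had 12.5% at 30 min and 7.45% at 6 h. Outside tandem repeats RELA at 6 h was 5.54%, RELB 1.28% and FOSL1 10.9%, against 4.45%, 2.08% and 51.5% of all peaks. With factor peaks outside tandem repeats RELA was 13.5% and 5.12%, RELB 1.18% and FOSL1 10.1%, against 9.44%, 4.17%, 1.95% and 48.3%. With peaks under 500 bp apart joined RELA was 22.1% and 14.1%, RELB 4.63% and FOSL1 16.5%, against 14.25%, 8.61%, 5.31% and 57.1% of all peaks. With factor peaks of at least 5-fold RELA was 13.7% and 6.11% and FOSL1 6.60%, against 9.36%, 5.44% and 31.4%. With regions widened by 500 bp RELA was 35.6% and 24.1%, FOSL1 27.9% and RELB 8.57%, and by summits within 1000 bp they were 35.96%, 24.6%, 28.9% and 8.77%, the RELB share again above all peaks (5.66% and 5.67%). For RELA and FOSL1 all peaks had 16.35%, 9.52% and 62.1% when widened, and 16.2%, 9.46% and 61.9% by these summits. RELA at 30 min was 9.26% by summits within 250 bp. The RELA shares were above all peaks and the FOSL1 share below in each of the 12 alternatives. For RELA at 30 min by summits within 250 bp, all peaks (8.25%) lay inside the interval (7.55 to 11.2). For RELA at 6 h the same held in several alternatives. Among them were outside tandem repeats (4.17 to 7.21 against 4.45%) and factor peaks outside tandem repeats (3.85 to 6.66 against 4.17%). Factor peaks of at least 5-fold (4.715 to 7.763 against 5.44%) were another. In the remaining alternatives the RELA interval lay above all peaks. The NF-κB consensus turned from below to above all peaks at −log10 q of at least 3 (9.0% against 7.87%), with no peak within 2000 bp (7.0% against 6.81%) and with joined peaks (10.8% against 7.38%). It was 3.65% in the central 200 bp, 7.88% in whole peaks and 10.5% with a looser consensus, against 4.63%, 15.3% and 13.2% of all peaks. The cause of these changes was not tested.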
